A study of Mus musculus with 441 samples.

Results

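The replication-dependent histone genes are the gene copies named Hist1h to Hist4h, which encode the linker histone H1 and the core histones H2A, H2B, H3 and H4. Members were taken as every row whose name begins with Hist1h, Hist2h, Hist3h or Hist4h, and were grouped by histone family from that name, with no measured value used in the choice. This gave 62 of the 21001 genes in the bulk RNA table and the same 62 of the 22443 genes in the table of single mouse embryonic stem cells (mESCs). They were 6 H1, 15 H2A, 18 H2B, 11 H3 and 12 H4 members. The table of neural precursor cells (NPCs) held 60 of them among 18873 genes, without Hist1h1t and Hist2h2be; Hist1h4b, Hist1h4j and Hist1h4k had the same values there and were counted once. The chromatin immunoprecipitation (ChIP) table held 68 members among 23167 genes, in 67 distinct windows, because Hist1h2bq and Hist1h2br had the same window. By the digit in the name, 50 of the 62 lie in the Hist1 cluster on chromosome 13, 8 in Hist2 on chromosome 3, 3 in Hist3 on chromosome 11, and 1, Hist4h4, on chromosome 6.

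Replication-dependent histone genes are transcribed mainly in S phase, when new DNA has to be packed into nucleosomes. Most of their mRNAs end in a conserved stem-loop, bound by the stem-loop binding protein Slbp, and carry no poly(A) tail; a minority of transcripts is polyadenylated, and poly(A)-primed methods record mainly those. The copies within a family are nearly identical in coding sequence, so short reads can be split among them, and the value of any single member is less certain than the sum over its family. H2afx and H2afj, which encode H2A variants, are close to the H2A members in coding sequence and are uncertain for the same reason.

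The study compared v6.5 mESCs grown in serum with the cytokine LIF (the reference culture), v6.5 mESCs grown with LIF in 2i (a medium with a pair of kinase inhibitors that holds cells in a more uniform naive state), and Dgcr8 knockout mESCs grown in serum with LIF. Dgcr8 is a subunit of the Microprocessor complex, and cells without it lack most mature microRNAs. For bulk RNA there were 2 libraries from serum, 1 from 2i and 2 from the knockout. Single cells were captured on Fluidigm C1 chips and amplified with the SMARTer kit, which primes on poly(A): 90 and 93 cells on 2 serum plates, 94 on the 2i plate, 84 on the knockout plate and 54 on a plate of NPCs. The labels give the bulk libraries this same single-cell text and do not otherwise say how bulk RNA was prepared, so whether histone mRNA without a poly(A) tail could be recorded in bulk is not known. ChIP was 1 library per mark and culture, for RNA polymerase II, H3K4me3, H3K27ac, H3K36me3, H3K27me3, H3K9me3 and input. The labels do not give the parental line or the number of clones of the knockout, nor do they say that libraries came from separate cultures, so p-values reflect only how far these libraries or plates spread, which may be technical. In bulk RNA, fewer cells with a transcript and less transcript per cell cannot be told apart.

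RNA values were deposited as natural logs of transcripts per 1000000 (TPM) plus 1, which keep no sequencing depth; between 7560 and 11054 genes reached a TPM of 1 in a bulk library, and the plates' medians ranged from 7351 to 9972 genes per cell. Both serum bulk libraries detected fewer genes (8365 and 7560) than the 2i (8989) and knockout libraries (11054 and 10818), and the part of this difference in the results below was not tested. The median tested gene was higher by 0.20 (log2) under 2i and 0.92 in the knockout than in serum in bulk, and by 1.24 and 1.39 on the plates, so changes are also given relative to it. The targeted gene, Dgcr8, was at a TPM of 10.6 and 10.3 in serum, 4.66 under 2i and 4.03 and 2.20 in the knockout, and at plate means of 72.5, 27, 34 and 16, so transcript remained in the libraries labelled knockout; whether these values cover the deleted part was not tested. All 8 pluripotency markers reached a TPM of 1 in every bulk library and mESC plate. Of the fibroblast or feeder markers in the bulk table, 5 of 6 were below 1, and Fn1 was not. On the NPC plate, 7 of 10 neural precursor markers reached a mean of 1 (not Msi1, Gfap and Olig2), as did 6 of 8 fibroblast or feeder markers, and the pluripotency markers still summed to 663.4 TPM, so that plate is described by its label only.

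Promoter letters differed between the families. RefSeq gave 1 promoter on the same chromosome and strand for 57 of the 68 members (build GRCm38.p6), and the 250 bases before each start were searched on both strands for 5 short motifs. The CCAAT box (CCAAT) was found in 6 of 6 H1, 16 of 16 H2A, 14 of 14 H2B and 8 of 10 H3 promoters but in 3 of 11 H4 promoters, against 33.8% of all 32851 promoters. GGTCCG, the core of the H4 element bound by the histone H4 transcription factor Hinfp, was in 8 of 11 H4 promoters against 6.72% of all; this motif was added after the promoters had been read. The octamer ATTTGCAT was in 7 of 16 H2A and 6 of 14 H2B promoters against 1.60% of all, and the H1 box AAACACA in 5 of 6 H1 promoters against 6.25%. In divergent pairs of an H2A and an H2B gene the searched stretches can overlap, so the same site can count in both families. The octamer and the CCAAT boxes of Hist1h2ae, for example, are also those of Hist1h2bg. The H2A and H2B counts are therefore not independent. The letters of the TATA box (TATAAA) were in 28 of 57 members against 12.4% of all, at any place in the 250 bases. The match lay at -28 in Hist1h1b but at -142 in Hist1h2ae, so a match need not be a TATA box of that gene. Matches were not counted by their distance from the start. The following stretches show the last 150 bases before the start, 5′ to 3′ on the gene's strand. They are from some of the H4, H2A, H2B and H1 members named below, and from a pair of germ cell members. Capitals mark these motifs on either strand.
Hist1h4d (chr13:23581418-23581567, plus strand): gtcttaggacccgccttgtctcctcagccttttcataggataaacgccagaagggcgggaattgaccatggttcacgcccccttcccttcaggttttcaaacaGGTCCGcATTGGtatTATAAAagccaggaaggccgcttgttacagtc
Hist4h4 (chr6:136804432-136804581, minus strand): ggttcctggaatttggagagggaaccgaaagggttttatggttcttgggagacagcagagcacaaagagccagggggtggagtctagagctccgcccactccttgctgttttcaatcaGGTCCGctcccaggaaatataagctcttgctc
Hist1h4c (chr13:23698459-23698608, minus strand): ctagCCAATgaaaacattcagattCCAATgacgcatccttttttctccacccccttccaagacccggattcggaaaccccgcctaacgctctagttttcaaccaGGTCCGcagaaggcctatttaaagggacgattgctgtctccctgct
Hist1h2ae (chr13:23571221-23571370, minus strand): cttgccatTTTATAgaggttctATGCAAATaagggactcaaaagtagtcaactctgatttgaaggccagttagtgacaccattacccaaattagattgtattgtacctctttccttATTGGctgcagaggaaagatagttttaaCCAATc
Hist1h2bm (chr13:21721894-21722043, plus strand): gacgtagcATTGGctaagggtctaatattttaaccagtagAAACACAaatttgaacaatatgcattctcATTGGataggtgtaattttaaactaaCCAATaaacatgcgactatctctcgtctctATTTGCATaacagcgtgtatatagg
Hist1h1b (chr13:21780626-21780775, minus strand): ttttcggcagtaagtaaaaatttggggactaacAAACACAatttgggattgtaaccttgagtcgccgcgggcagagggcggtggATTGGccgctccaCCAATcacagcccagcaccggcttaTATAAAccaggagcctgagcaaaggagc
Hist1h1t (chr13:23695661-23695810, plus strand): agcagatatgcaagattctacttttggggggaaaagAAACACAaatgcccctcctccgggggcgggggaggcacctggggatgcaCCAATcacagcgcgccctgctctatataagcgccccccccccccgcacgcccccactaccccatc
Hist1h2aa (chr13:23934287-23934436, plus strand): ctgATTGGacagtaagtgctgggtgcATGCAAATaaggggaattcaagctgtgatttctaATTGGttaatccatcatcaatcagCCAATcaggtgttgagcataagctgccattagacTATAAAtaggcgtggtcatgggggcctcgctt
The H4 stretches shown share the run around GGTCCG shortly before the start, which the H2A, H2B and H1 stretches shown lack. Hist1h4a, Hist1h4b and Hist1h4h, not shown, had no such match. Of these, Hist1h4b and Hist1h4h also rose in 2i and in the knockout in bulk RNA. Whether the motif goes with the size of a change was not tested. A match is a description of letters, and no binding to these stretches was measured. Hist2h4, Hist1h2bc, Hist1h3a, Hist1h3f, Hist2h2be and Hist3h2bb-ps were not matched.

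In bulk RNA, histone transcripts recorded in 2i and in the knockout were mostly H4, while in serum they were low and led by H2A. Summed over all members, TPM was 22.7 and 35.8 in serum, 770.6 under 2i, and 1030 and 1046 in the knockout. The H4 sum was 3.07 and 4.41 in serum, 617.0 under 2i, and 872.2 and 741.5 in the knockout. The groups did not overlap in either sum, and the serum libraries were low in both. H4 therefore made up 13.5% and 12.3% of the histone TPM in serum, 80.1% under 2i, and 84.7% and 70.9% in the knockout. The H2A sum was 9.67 and 22.2 in serum, 65.5 under 2i, and 117.3 and 269.0 in the knockout. H2B summed to 3.09 and 5.42, then 73.2, then 24.1 and 23.3, and was highest in 2i. H1 summed to 4.67 and 1.89, then 11.1, then 8.57 and 8.16, and H3 to 2.16 and 1.96, then 3.80, then 8.11 and 4.33, so both stayed low.

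**Figure D1:**
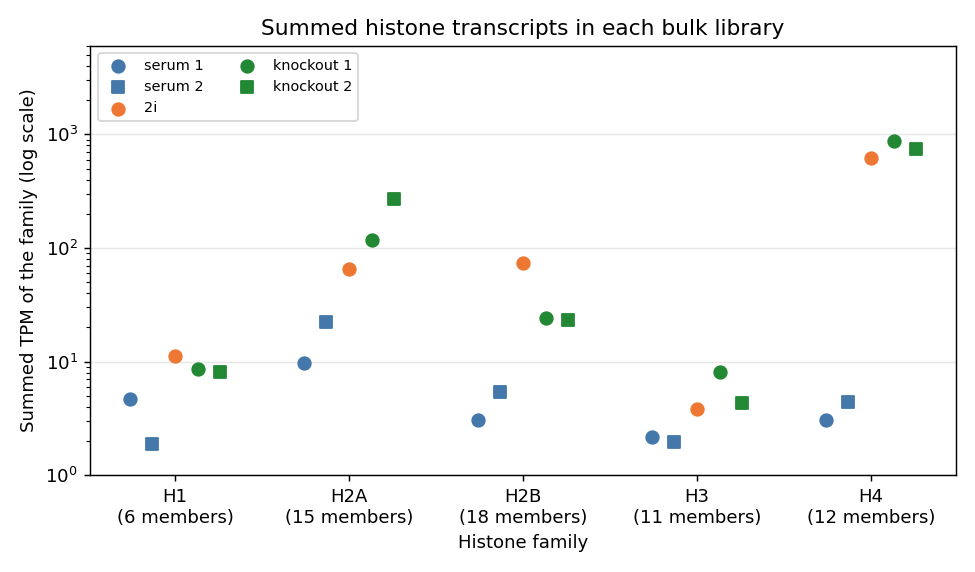
Summed TPM of the members of each histone family (log axis) in each of the 5 bulk libraries, 2 serum, 1 2i and 2 knockout. The H4 sum stands at 3.07 and 4.41 in serum and between 617.0 and 872.2 in the other libraries, and the H2B sum is highest in 2i, at 73.2.

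By limma's test, 21 of the 26 members tested rose in 2i against serum, and 20.6% of all 8987 genes tested rose. None fell, neither at the adjusted threshold nor at an unadjusted p under 0.05, with or without limma's trend, and 12% of all genes fell. In the knockout against serum, 22 of 26 rose, where 62.7% of all genes rose, and none fell by either measure, where 11.8% of all genes fell. Centred on the median gene, 16 members were higher in 2i and 14 in the knockout, and none lower. These counts cannot be read as support, since 36 of the 62 members were listed at 0 in both serum libraries and most of those tested entered through the libraries in which they were high. Only 5 tested members had a serum mean TPM of at least 1, namely Hist1h1b, Hist1h2ae, Hist1h2ap, Hist1h2bc and Hist1h4d; 3 of these rose in 2i and 4 in the knockout. The remaining 36 members did not reach a mean TPM of 1, and 7 were listed at 0 in all 5 libraries.

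The H4 signal rested on a few members. Hist2h4, an H4 copy of the Hist2 cluster, was at 0 and 0.715 TPM in serum, 373.3 under 2i, and 466.4 and 460.1 in the knockout. Hist1h4d, an H4 copy of the Hist1 cluster, was at 2.05 and 2.50 in serum, 186.0 under 2i, and 330.6 and 234.1 in the knockout. The serum libraries lay far below the others for both genes, with no overlap, and the share of all genes without such overlap was not counted. On the log2(TPM + 1) scale Hist1h4d rose by 5.84 ± 0.25 (SE) under 2i (adjusted p = 1.7e-08) and by 6.42 ± 0.21 in the knockout (adjusted p = 5.8e-10), or 5.64 and 5.49 relative to the median gene. Hist2h4 rose by 8.16 ± 0.29 and 8.47 ± 0.24 (adjusted p = 3.6e-09 and 2.7e-10), or 7.96 and 7.54 relative to the median gene; with 1 serum library listed at 0, these values depend on the added 1. Together the pair held 90.6% to 93.6% of the H4 TPM in the 2i and knockout libraries. Hist4h4, the lone member on chromosome 6, was at 0.512 and 0 in serum, 26.2 under 2i, and 23 and 10.3 in the knockout, and rose in both (adjusted p = 9.4e-06 and 1.9e-06), with 1 serum library again at 0. Hist1h4c was listed at 0 in serum and at 3.37, 12.5 and 6.46 in the others. Of 9 H4 members tested, 8 rose in 2i and 9 in the knockout, where 20.6% and 62.7% of all genes rose, and 8 were higher in each after centring. Of the 9, Hist1h4d alone had a serum mean TPM of at least 1, so the others entered the test through the libraries in which they were high.

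Of the H2A members, Hist1h2ae was the highest in bulk, at 4.69 and 15.5 TPM in serum, 28.8 under 2i, and 36 and 105.7 in the knockout. Its serum libraries were the lowest, but libraries within a group were also far apart. It rose in the knockout by 2.70 ± 0.48 (adjusted p = 2.9e-04), and its 2i value of 1.62 ± 0.59 did not pass (adjusted p = 0.053). Hist1h2ap was at 4.59 and 5.85 in serum, 12.8 under 2i, and 10.3 and 30.5 in the knockout, and rose in the knockout (1.61 ± 0.38, adjusted p = 0.0022), but not without serum replicate 1 (adjusted p = 0.076) or knockout replicate 2 (adjusted p = 0.085). Centred on the median gene, neither passed in the knockout (adjusted p = 0.077 and 0.41). Of the H2A copies in the Hist2 cluster, Hist2h2aa2 was at 0.389 and 0 in serum, 7.23 under 2i, and 28.7 and 42.8 in the knockout, and Hist2h2ac was at 0 and 0.637, then 3.17, then 30.2 and 44.5. Both were ordered serum, 2i, knockout without overlap, and the share of all genes in this order was not counted. In the knockout they rose by 4.94 ± 0.28 and 4.88 ± 0.31 (adjusted p = 4.0e-08 and 8.0e-08), and centring did not end either call. Each has a serum library at 0 and entered the test through the other cultures, so the size of these changes depends on the added 1.

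The H2B members of highest mean TPM over the bulk libraries were highest in 2i. A high 2i value itself raises that mean, so this order is partly fixed by how they were picked. Hist2h2bb was at 0.552 and 0.446 TPM in serum, 25.9 under 2i, and 3.86 and 4.81 in the knockout, and Hist1h2bm was listed at 0 in serum, at 14.5 under 2i, and at 2.65 and 2.80 in the knockout. Hist1h2bc, the H2B member of highest serum level, was at 2.19 and 2.58, then 6.33, then 4.64 and 5.24. For each of the 3 genes the groups did not overlap, with serum lowest and 2i highest, and the share of all genes in this order was not counted. Hist2h2bb rose by 4.17 ± 0.31 under 2i (adjusted p = 1.2e-06) and by 1.83 ± 0.26 in the knockout (adjusted p = 4.8e-05). Hist1h2bc rose by 1.12 ± 0.31 under 2i (adjusted p = 0.016) and by 0.81 ± 0.25 in the knockout (adjusted p = 0.012), but relative to the median gene its knockout value was -0.11. Its 2i call ended without either knockout library (adjusted p = 0.077 and 0.080), as did its knockout call (adjusted p = 0.080 and 0.13). Others were not highest there: Hist1h2bh was listed at 0 under 2i and at 4.61 and 0 in the knockout, and Hist1h2bp was at 0.923 under 2i and 1.07 and 1.45 in the knockout. All 7 tested H2B members rose in 2i and 4 of 7 in the knockout, against the same 20.6% and 62.7% of all genes, and 5 and 2 were higher after centring. Of the 7, Hist1h2bc alone had a serum mean of at least 1.

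Linker histone and H3 transcripts were scarce. Hist1h1b, which encodes the linker histone H1.5, was at 3.57 and 1.51 TPM in serum, 9.17 under 2i, and 5.07 and 3.55 in the knockout. It rose in 2i (1.59 ± 0.39, adjusted p = 0.0081), a call that ended without serum replicate 2 (adjusted p = 0.053) or either knockout library (adjusted p = 0.051 and 0.061), and in the knockout, whose lower library overlapped serum, its value of 0.63 ± 0.32 did not pass (adjusted p = 0.087; -0.49 after centring), though it did without serum replicate 1 (adjusted p = 0.020). Hist1h1c, which encodes H1.2, stayed under the filter, at 0.0721 and 0.115 in serum, 0.662 under 2i, and 1.54 and 1.71 in the knockout. Hist1h3g was the only tested H3 member, at 1.5 and 0 in serum, 0 under 2i, and 1.89 and 2.58 in the knockout. It rose in the knockout (1.02 ± 0.36, adjusted p = 0.020), but centred on the median gene its value was -0.10, and the call ended without serum replicate 2 (adjusted p = 0.32) or knockout replicate 1 (adjusted p = 0.067).

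In bulk RNA, the H2A sum was higher in the knockout libraries than in 2i, and the H2B sum was lower. Of 26 members, 7 were higher in the knockout than in 2i, where 49.4% of all genes were higher, and 6 were lower, where 12% were lower. The higher members were 4 of 8 H2A, 2 of 9 H4 and the H3 member, and the lower ones were 5 of 7 H2B and the H1 member, Hist1h1b, whose call ended without either knockout library (adjusted p = 0.12 and 0.30). Hist2h2ac and Hist2h2aa2 were higher in the knockout by 3.18 ± 0.37 and 2.13 ± 0.35 (adjusted p = 2.5e-05 and 2.7e-04). Hist2h2bb and Hist1h2bm fell by 2.34 ± 0.31 and 2.06 ± 0.30 (adjusted p = 6.8e-05 and 1.2e-04). Centred on the median gene, 3 members were higher, all H2A, and 8 lower, 6 of them H2B. Hist2h4 and Hist1h4d did not pass the test between the knockout and 2i (0.31 ± 0.29 and 0.58 ± 0.25, adjusted p = 0.37 and 0.065), and after centring both values turned negative (-0.57 and -0.30). The 2i group is 1 library, so its spread was taken from the other groups. Only 5 of the 26 members had a serum mean TPM of at least 1. Most others entered the test through the 2i or knockout libraries in which they were high, so these counts cannot be read as support.

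On the single-cell plates, H2A transcripts were high in every mESC culture, and H4 was again far higher on the 2i and knockout plates than in serum. Mean H2A sums per cell were 1585 and 919.5 TPM on the serum plates, 1472 under 2i and 1271 in the knockout, so the 2i and knockout means lay between those of the serum plates. Mean H4 sums per cell were 57.6 and 43.5 in serum, 2227 under 2i and 1881 in the knockout, with both serum plates far below. H2A thus made up 91.5% and 90.2% of the histone TPM on the serum plates, 36.3% under 2i and 37.6% in the knockout. The ratio of H2A to H4 was 27.5 and 21.2 in serum, 0.661 under 2i and 0.676 in the knockout; in bulk it was 3.15 and 5.03, then 0.106, then 0.134 and 0.363. The fall of this ratio against serum does not depend on the scaling of a library. H2B sums were 28.1 and 21.3 in serum, 132.7 under 2i and 88.1 in the knockout. H3 sums were 50.7, 27.8, 163.2 and 78.8, and H1 sums were 10.3, 6.94, 60.5 and 64.9, all higher on the 2i and knockout plates.

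**Figure D2:**
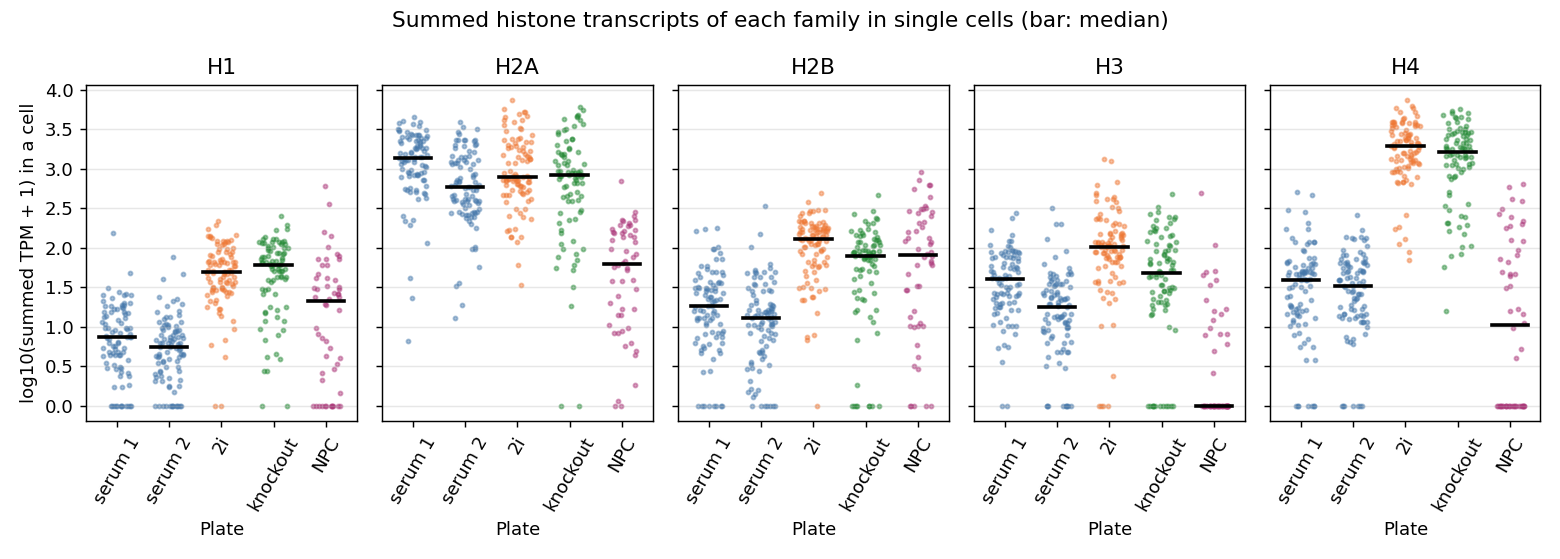
Log10 of the summed TPM plus 1 of each histone family in single cells (points), by plate, with 90 and 93 serum, 94 2i, 84 knockout and 54 NPC cells and bars at the medians. Median H2A sums lie between 586.1 and 1375 on the mESC plates, while median H4 sums are 38.3 and 32.1 in serum, 1915 under 2i and 1632 in the knockout.

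The plates were tested as 4 samples with limma on log2 of the plate mean plus 1, which leaves 1 residual degree of freedom, from the pair of serum plates. Of 50 members tested, 43 of which had a serum mean of at least 1, 23 rose in 2i, where 38.1% of all 11086 genes rose, and none fell, where 1.77% fell. In the knockout 18 rose, where 49.4% of all genes rose, and none fell, where 2.78% fell. In both comparisons none was lower at an unadjusted p under 0.05 either. Read against these shares, the counts over all families are near the background. The median gene moved strongly on the plates, and centred on it, 18 members were higher and 7 lower in 2i, and 11 higher and 17 lower in the knockout. The families differed: for H4, 7 of 10 rose in each comparison and 8 and 6 were higher after centring, whereas for H2A 2 and 1 of 14 rose and 5 and 9 were lower after centring. The H2A members that rose were Hist1h2aa in both comparisons and Hist3h2a in 2i, named after their values were seen, both with serum means under 1. Of the H1 members, 3 of 4 rose in 2i and 4 of 4 in the knockout. Of 12 H2B members, 8 and 6 rose, and of 10 H3 members, 3 rose in 2i and 0 in the knockout, where 1 H3 member was higher at an unadjusted p under 0.05. After centring, H1 had 3 and 2 members higher and none lower. H2B then had 4 higher and 0 lower in 2i but 2 higher and 3 lower in the knockout, and H3 had 3 higher and 2 lower in 2i but 0 higher and 5 lower in the knockout.

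**Figure D3:**
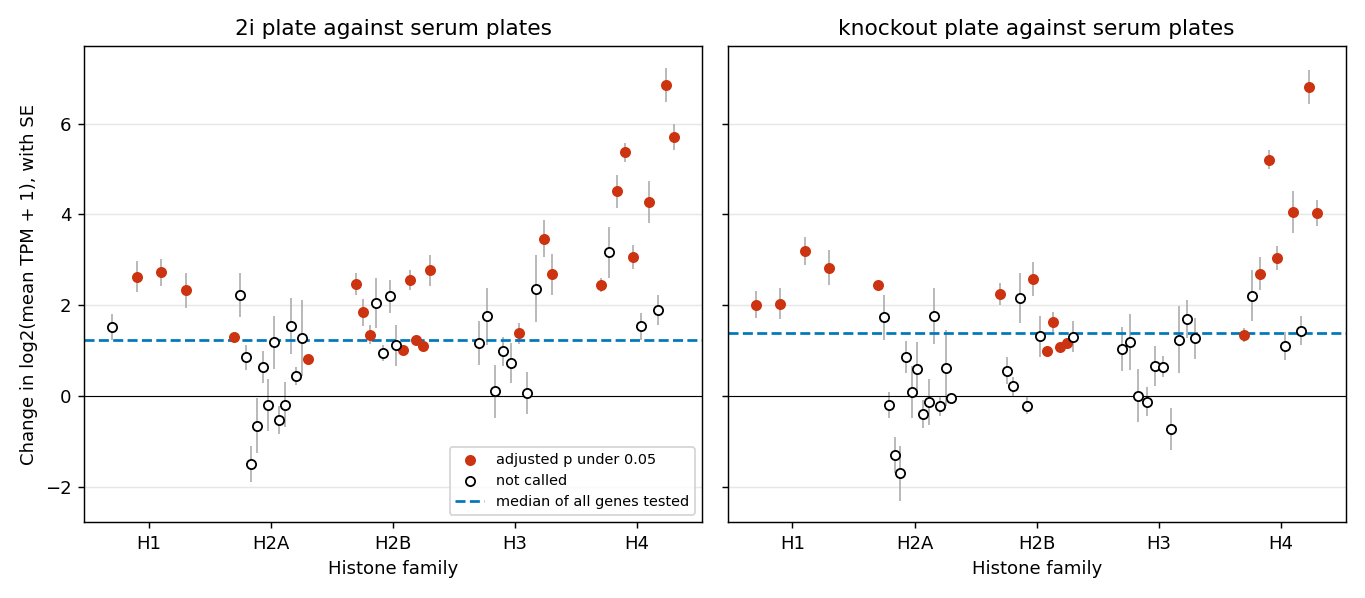
Change in log2(mean TPM + 1) of plate means against the serum plates, with SE, for each tested member by family, in 2i and in the knockout; filled points passed the test, and a dashed line marks the median gene (1.24 and 1.39). H4 members lie mostly above the line in both comparisons, and H2A members mostly below it in the knockout.

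Hist1h4d had plate means of 28.6 and 24.1 TPM in serum, 1124 under 2i and 1004 in the knockout, and rose by 5.37 ± 0.21 (SE) and 5.20 ± 0.21 on the log2 scale (adjusted p = 0.012 and 0.0097). Hist2h4 had means of 6.78 and 4.18, then 729.2, then 705.1, and rose by 6.85 ± 0.38 and 6.80 ± 0.38 (adjusted p = 0.019 and 0.015). Relative to the median gene, Hist2h4 was higher by 5.60 and 5.41. Hist4h4 had means of 2.59 and 1.89, then 166.3, then 51.5, and rose in both (adjusted p = 0.017 and 0.020), with the 2i plate the highest. Hist1h4c, at 2.92 and 1.87, then 75.7, then 20.8, rose in both as well (adjusted p = 0.029 and 0.035). For these 4 H4 genes the serum plates lay close together and far below the others.

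Hist1h2ap, the H2A member with the most recorded transcript on the mESC plates, had means of 897.7 and 513.3 TPM in serum, 599.8 under 2i and 626.6 in the knockout, both within the range of the serum plates. Its changes of -0.18 ± 0.50 and -0.12 ± 0.50 did not pass (adjusted p = 0.78 and 0.85). Centred on the median gene it was lower in both comparisons, at -1.51 and -1.67 (adjusted p = 0.034 and 0.018). Hist1h2ae, with means of 155.3 and 117.7, then 246.0, then 118.1, did not pass in either comparison. Hist1h2ag had plate means of 84.3 and 41.7 in serum, 37.7 under 2i and 17.7 in the knockout; its changes of -0.64 and -1.69 did not pass (adjusted p = 0.42 and 0.12), and after centring it was lower by 1.97 and 3.25 (adjusted p = 0.0022 and 1.2e-04). In bulk the same gene was listed at 0 in serum and under 2i and at 3.55 and 11.4 in the knockout, where it rose by 2.91 ± 0.38 (adjusted p = 2.4e-05; 0.013 after centring), so its bulk and plate values went opposite ways in the knockout.

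Linker histones moved upward on the plates. Hist1h1c had means of 1.54 and 1.09 TPM in serum, 14.2 under 2i and 20.1 in the knockout (2.73 ± 0.30 and 3.20 ± 0.30, adjusted p = 0.037 and 0.026). Hist1h1b had means of 4.31 and 3.07, then 27.7, then 18.1, and rose in both (adjusted p = 0.042 and 0.044). Centred, Hist1h1c was higher in both, and Hist1h1b in 2i but not in the knockout (adjusted p = 0.13). Among H2B members, Hist2h2bb had means of 4.49 and 3.28, then 32.1, then 11, and rose in 2i (adjusted p = 0.039) but did not pass in the knockout (adjusted p = 0.075). Hist2h3b, an H3 copy of the Hist2 cluster, had means of 6.01 and 3.68, then 62.2, then 17.6, with the 2i plate highest.

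The same cultures gave different histone levels in bulk and on plates. Plate means over bulk means of the H2A sum were 163.9 and 41.4 for the serum pairs, 22.5 for 2i and 6.58 for the knockout, and those of the H4 sum were 18.8, 9.86, 3.61 and 2.33. The plates were thus higher for both families and in every culture, more so for H2A than for H4. The tables were normalised separately, and the part of library preparation in this gap was not tested.

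Most members were recorded in a minority of cells. A cell was counted as holding a member at a TPM of at least 1, and exact 95% binomial intervals cover counting error only. The median cell held 19 and 15 members on the serum plates, 28 under 2i, 24 in the knockout and 6 on the NPC plate. Hist1h2ap was in 100% of the cells of both serum plates, 98.9% under 2i and 96.4% (89.9 to 99.3) in the knockout. Hist2h4 was in 32.2% (22.8 to 42.9) and 22.6% (14.6 to 32.4) of serum cells, 98.9% (94.2 to 100) under 2i and 97.6% (91.7 to 99.7) in the knockout. Hist1h4d was in 77.8% and 81.7% of serum cells and in 100% and 98.8% of 2i and knockout cells. Hist4h4 went from 20% and 11.8% to 92.6% and 70.2%, and Hist1h1c from 40% and 33.3% to 94.7% and 94.0%. For these 3 H4 genes, a larger share of cells on the 2i and knockout plates went with a higher plate mean. Not every H4 member had a larger share: Hist1h4i was in 33.3% and 37.6% of serum cells, 39.4% of 2i cells and 36.9% of knockout cells, Hist1h4n in 27.8%, 30.1%, 45.7% and 28.6%, Hist1h4j in 8.89%, 6.45%, 0% and 7.14%, and Hist1h4f in 4.44%, 5.38%, 9.57% and 0%. Hist1h2ag, higher in the bulk knockout, was on the plates in 86.7% and 65.6% of serum cells, 48.9% of 2i cells and 38.1% of knockout cells, and Hist1h2af in 57.8% and 52.7%, then 27.7%, then 27.4%. Without any H4 member were 7 of 90 and 8 of 93 serum cells, and 0 of 94 2i and 0 of 84 knockout cells, which allows a share of up to 3.19% and 3.57% by the limit of 3 counts (exact upper bounds 3.85% and 4.3%); these limit cells with recorded transcript, not cells that express the genes. Genes detected per cell also differed between plates, and their part in these shares was not tested.

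**Figure D4:**
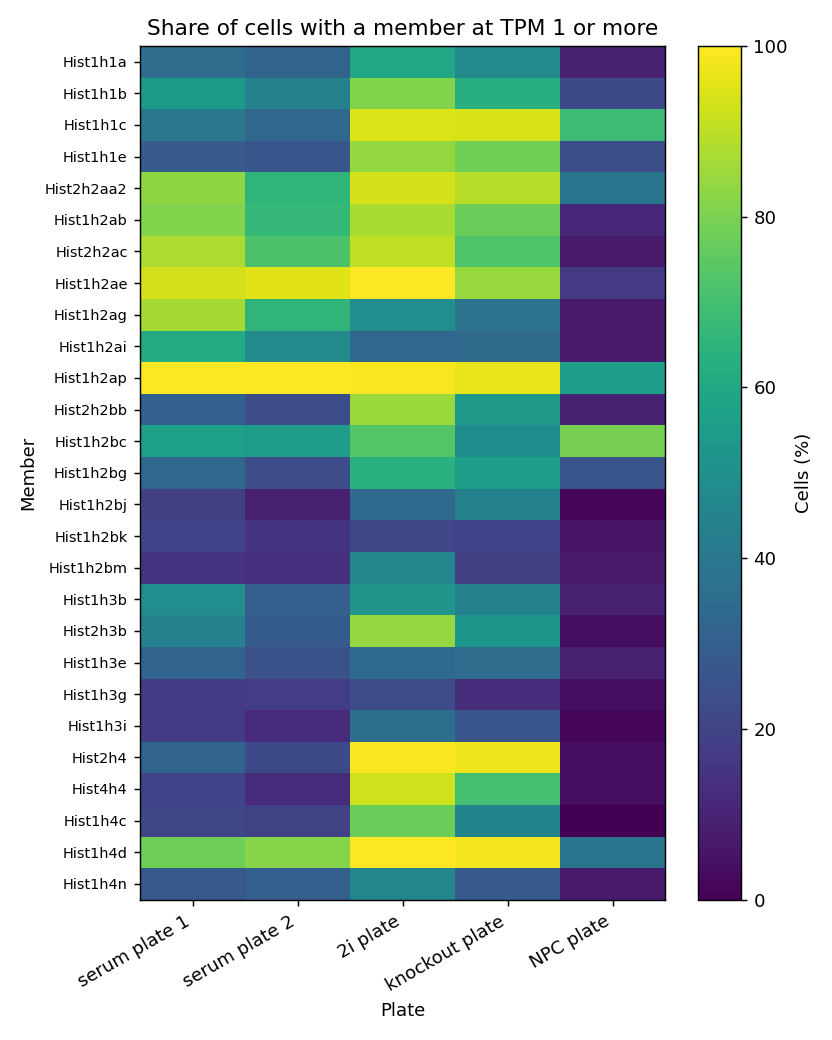
Share of cells (percent, colour scale) with a TPM of at least 1 for named members (rows) on each of the 5 plates (columns). Hist2h4 goes from 32.2% and 22.6% of serum cells to 98.9% under 2i and 97.6% in the knockout, while Hist1h2ap is at 96.4% or more on the mESC plates.

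A summed histone level of at least 100 TPM was reached by 96.7% and 96.8% of serum cells, 100% of 2i cells and 98.8% of knockout cells, so histone-negative cells by that measure were few. Between serum cells the sum nevertheless ranged widely, from 23.8 to 4693 TPM on the first plate (median 1536) and from 14.3 to 4383 on the second (median 649.5). On the 2i plate it ranged from 137.2 to 14417, with a median of 3345.

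Within plates, members tended to be high in the same cells. Over members present in at least 10% of cells, the mean pairwise Spearman correlation was 0.109 and 0.125 on the serum plates (49 members each), 0.172 under 2i (53), 0.207 in the knockout (48) and 0.105 on the NPC plate (17). Over all genes it was between 0.004 and 0.032. These are descriptions over cells that share a plate, and with the number of genes detected per cell held constant the means were 0.109, 0.118, 0.168, 0.201 and 0.0955. On the mESC plates the mean over pairs of 1 family exceeded that over pairs of different families, with means of 0.178 against 0.092 and 0.190 against 0.109 in serum, 0.221 against 0.160 under 2i and 0.252 against 0.196 in the knockout. Above the means between families were H2A pairs (0.309 under 2i and 0.335 in the knockout), H4 pairs (0.375 and 0.351) and H1 pairs (0.254 and 0.244). H3 pairs (0.128 and 0.132) and H2B pairs (0.0905 and 0.131) were below them. H2B pairs were also below H2B with H4 (0.181 and 0.201). On the NPC plate the means were 0.114 against 0.102, and over members in at least 25% of cells 0.0537 against 0.0926. The pair Hist1h4d and Hist2h4 reached 0.90 in both 2i and the knockout. The H2A pair Hist1h2ae and Hist1h2ap was at 0.88 and 0.89 on the serum plates, 0.92 under 2i and 0.90 in the knockout. Since reads of near-identical copies can be split among them, the part of shared reads in such pairs was not tested.

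The summed histone level, here the sum over members of log2(TPM + 1) in a cell, correlated with that of the G1/S and DNA replication genes, which act as cells enter and pass S phase, with Spearman correlations of 0.437 and 0.443 over 90 and 93 serum cells, 0.320 over 94 2i cells, 0.242 over 84 knockout cells and 0.322 over 54 NPCs. Against the G2/M and mitosis genes it was -0.038 and -0.121 in serum, -0.444 under 2i, 0.051 in the knockout and 0.0986 in NPCs. Against the replication-independent histone variants it was 0.411, 0.585, 0.346, 0.370 and 0.152 in the same order, so other lists also correlated with it. That list includes H2afx, whose reads can be split with those of H2A members. With the number of genes detected per cell held constant, the G1/S values were 0.434, 0.372, 0.281, 0.211 and 0.266. The G2/M values were then -0.078, -0.229, -0.412, -0.004 and 0.047, and those of the variants 0.418, 0.549, 0.329, 0.341 and 0.101. In NPCs the H2B level alone was at -0.140 against the G1/S genes and the H4 level at 0.520. The levels compared come from the same libraries. The genes most like the summed level were Trim28 (0.54), Pcna (0.50) and Orc6 (0.50) on the first serum plate and Cox5a and H2afj (0.60 each) on the second. In 2i they were Klf4 and Usp37 (0.45 each), and in the knockout H2afx (0.59) and H2afj (0.57).

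Other genes of the pathway were taken from lists fixed by function. Of 18 tested genes of histone mRNA transcription and 3′ end processing, 1 rose in 2i bulk (Lsm10, a subunit of the U7 particle) and 4 fell, among them Zfp473; in the knockout 8 rose and 1 fell. On the plates 4 of 20 rose in 2i and 5 in the knockout, and Slbp fell in the knockout. Slbp was at a TPM of 86.8 and 121.9 in serum bulk, 118.4 under 2i, and 98.7 and 88 in the knockout, with overlapping groups, and at plate means of 1305 and 1068, then 620.8, then 407.3. Of 27 G1/S genes, 6 rose and 8 fell in 2i bulk, and 11 rose and 6 fell in the knockout. Of 16 histone chaperones, which carry new histones to DNA, 2 rose and 2 fell in 2i bulk, and 7 rose and 4 fell in the knockout. Of 8 replication-independent histone variants, 2 rose and 1 fell in 2i bulk, and 6 rose and 2 fell in the knockout. The largest rise in each was that of H2afx, whose reads can be split with those of H2A members. In bulk, 20.6% of all genes rose and 12% fell in 2i, and 62.7% and 11.8% in the knockout. On the plates 38.1% and 49.4% rose. Centred on the median gene in bulk, G1/S genes had 6 higher and 10 lower in 2i, and 2 and 17 in the knockout. Processing genes then had 0 and 6, and 1 and 9. Chaperones had 2 and 5, and 2 and 8, and variants 1 and 1, and 2 and 3. On the plates, processing genes had 1 and 6, and 0 and 8 after centring.

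RNA polymerase II covered nearly all members heavily in every culture. The ChIP values were raw read counts in a 1000-base window per gene (mm9), whose place relative to the gene the sources used here do not give, and with 1 library per mark and culture no test was made. The members' median polymerase count was 1310 in serum, 582.0 under 2i and 1539 in the knockout, against 27, 18 and 32 over all windows, or 48.5, 32.3 and 48.1 times as much. Of 67 windows, 65, 62 and 64 were above the 90th percentile of all windows, which 9.95%, 9.98% and 9.90% of all windows exceed. The members held 5.48%, 4.17% and 5.86% of all window reads with 0.289% of the windows. Neighbouring windows share reads: 33 members lay in 21 overlapping pairs, 15 of them an H2A gene and an H2B gene on opposite strands. Among the 35 windows with no overlap the medians were 1241, 540.0 and 1456.

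The polymerase counts did not follow the RNA between cultures. Scaled by window reads, polymerase was lower in 2i than in serum at 67 of 67 windows, where 43.5% of all 19248 windows with enough reads were lower. Most of those windows had far lower counts than the members, and windows of similar count were not set beside them. Whether the fall is particular to histone genes was therefore not tested. The median log2 ratio was -0.41, with a range from -1.90 to -0.16, against 0.11 over all windows. In the knockout 48 of 67 were higher, where 53.3% of all windows were higher, and the median was 0.11 against 0.05. At Hist1h4d, polymerase counts were 1241 (1173 to 1312, exact 95% Poisson interval for counting error only) in serum, 567 (521.3 to 615.7) under 2i and 1342 (1271 to 1416) in the knockout, or 815.4, 628.6 and 822.2 per 1000000 window reads. At Hist2h4 the counts were 786, 338 and 873, or 516.5, 374.7 and 534.9 on that scale. At Hist1h2ap they were 2174, 1152 and 2529, or 1429, 1277 and 1550 on that scale. The 2i library was the lowest on that scale at all 3 genes, although the RNA of both H4 genes was far higher in 2i than in serum.

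**Figure D5:**
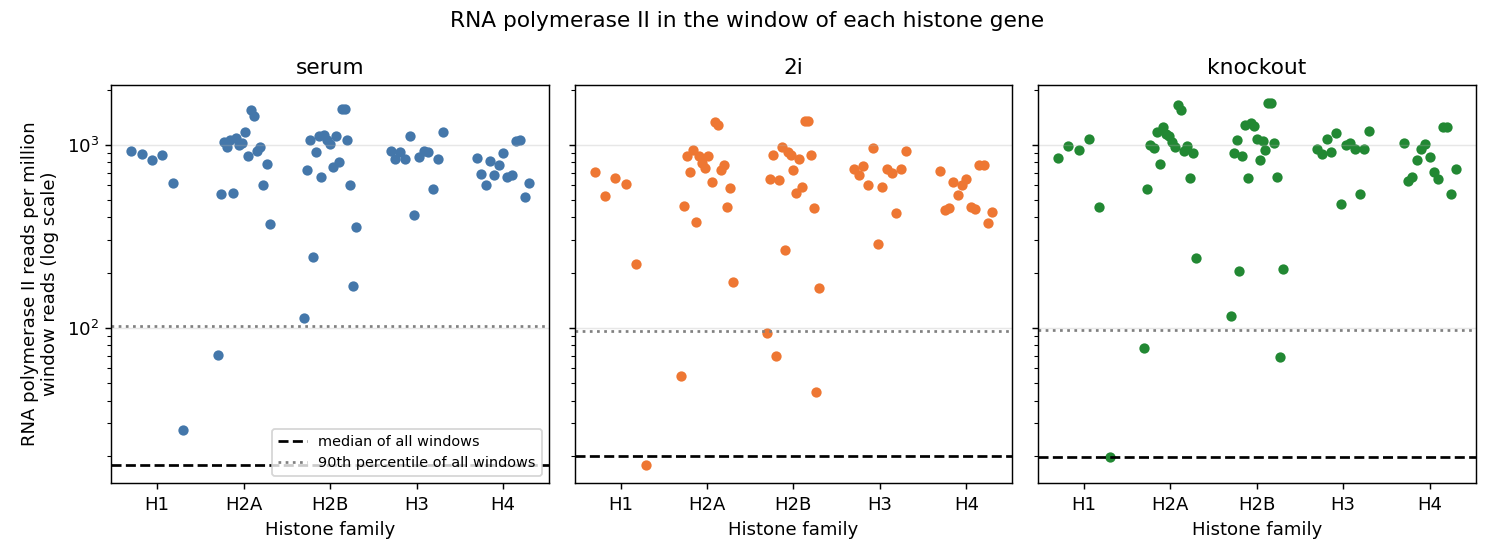
RNA polymerase II reads per 1000000 window reads (log axis) for each of the 68 members, by family, in serum, 2i and the knockout. Hist1h2bq and Hist1h2br share a window and are both drawn. Lines mark the median and the 90th percentile of all windows. Of the 67 distinct windows, 65, 62 and 64 lie above the 90th percentile line, and Hist1h1t is the lowest in each panel.

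Among active marks, members had a median H3K27ac count of 478.0 in serum against 81 over all windows, and 35 of 67 were above the 90th percentile, which 9.97% of all windows exceed. H3K4me3, a mark of active starts, had a median of 393.0 against 273.0, with 0 of 67 above the 90th percentile. In the knockout H3K4me3 was higher than in serum at 65 of 67 windows (62.4% of all windows), with a median log2 ratio of 0.97 against 0.16, and H3K27ac at 54 of 67 (35.2% of all windows), with medians of 0.22 and -0.21. In 2i H3K4me3 was higher at 43 of 67 (54.2% of all windows) and H3K27ac at 14 of 67 (39% of all windows). Input also differed at the members' windows. Its median log2 ratio to serum was 0.226 in the knockout, against -0.003 over all windows, and 0.135 in 2i, against -0.018. The ratios of these marks and of polymerase were not divided by input, and its part in them was not tested. Nor were the mark ratios set beside those of windows of similar count. The repressive mark H3K27me3 had a median of 9 in serum, against 20 over all windows.

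The germ cell members had low polymerase counts for histone genes, though 2 other members were also low. Hist1h1t, the testis linker histone, had polymerase counts of 42 (30.3 to 56.8) in serum, 16 under 2i and 32 in the knockout, and was listed at 0 in all bulk libraries and on all mESC plates. Hist1h2aa and Hist1h2ba, a divergent pair of testis H2A and H2B genes whose windows overlap by 695 bases, had counts of 108 and 172 in serum, 49 and 84 under 2i, and 127 and 189 in the knockout. Hist3h2ba, not a germ cell gene, had 257, 40 and 113, and Hist1h2be 368, 63 and 331. Hist1h2aa and Hist1h2ba had the highest H3K27me3 counts of all members in serum, 92 and 98. Hist1h2aa was nevertheless recorded in 7.78% and 7.53% of serum cells, 10.6% of 2i cells and 14.3% of knockout cells, and Hist1h2ba in 4.26% of 2i and 14.3% of knockout cells and in none of the serum cells, where 3 counts would be 3.33% and 3.23% (exact upper bounds 4.02% and 3.89%).

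On the NPC plate histone transcript was low and differently composed. The mean sum was 403.8 TPM per cell, against 1019 to 4056 on the mESC plates; the table was normalised on its own, so no test was made. H2B was the leading family, with a mean sum of 160.8 and 39.8% of the histone TPM, ahead of H2A at 98.0 and H4 at 83.2. Hist1h2bc alone had a mean of 125.6, in 79.6% (66.5 to 89.4) of cells, against means of 6 to 26.8 on the mESC plates. Hist1h1c had a mean of 30.0 in 68.5% of cells, and Hist3h2a a mean of 15.5 in 50%, against at most 2.06 on the mESC plates. Hist1h2ap was at 31.6 in 55.6% of cells, and Hist2h4 at 2.04 in 3.70%. No H4 member was recorded in 25 of 54 cells, and no H3 member in 35.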

How the data were processed

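Poly(A)-primed single-cell RNA libraries, bulk RNA libraries and ChIP libraries were analysed from the deposited tables. The RNA tables were deposited as the natural log of TPM plus 1 (from the values: reversed, each column sums to between 935813 and 1212145), and TPM keeps no depth. Bowtie and RSEM and the build mm9 are named, without versions, per the submitters' processing notes. The ChIP table holds raw read counts per 1000-base window as deposited, per the file headers.

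Values were turned back to TPM, and rows with identical values (on the NPC table Hist1h4b, Hist1h4j and Hist1h4k) were counted once. Means per group were compared with limma 3.58.1 (R 4.3.3, with trend) on log2(TPM + 1), over genes averaging a TPM of 1 or more, with Benjamini-Hochberg adjustment over all genes tested and a call at an adjusted p under 0.05. The bulk fit used 5 libraries and the plate fit 4 plate means, since cells are not replicates. The scripts were tested on simulated data. Comparisons of 2i and of the knockout share the serum samples and are set side by side only. ChIP counts were scaled by the sum over all windows, and ratios were taken for windows with at least 20 reads over both libraries. Promoters came from RefSeq (GRCm38.p6), by the transcript identifier given with each ChIP window.

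The members and lists were chosen with earlier results of these data known. Members were named by a rule: in each family the 3 of highest mean TPM and the 3 called members of largest change each way, with the highest shares of cells and the ChIP extremes; Hist1h2af, Hist3h2a and the NPC plate's leading genes were added after their values were seen. Alternatives were other pseudocounts, filters, scalings, thresholds and left-out libraries.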

Additional observations from a re-analysis of the deposited data

How the results depend on the processing

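Of 1109 alternative values for 114 single genes and comparisons, 893 kept direction and side of the threshold, 113 lost the call, 70 gained one and 33 reversed; the causes were not tested. Those kept include 7 whose sign changed with no call and 1 of the values compared at 0.00, which has no direction: in bulk, Hist1h2ag under 2i (5 settings, -0.24 when centred), Hist1h3g under 2i without serum replicate 1 and Hist1h2bk in the knockout without knockout replicate 1. RNA sequencing depth is unknown, the 2i bulk library and every ChIP library are single, and the plate test rests on the pair of serum plates; no test was possible without 1 of those.

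With a mean TPM of at least 5 required, fewer members were tested and 9 rose in 2i bulk, 9 in the knockout, and 3 were higher and 1 lower in the knockout than in 2i. Centring on the median gene left 14 members higher in the bulk knockout, 3 higher against 2i (3 also with quantile normalisation), 11 higher and 17 lower on the knockout plate, and 7 lower in 2i. Without centring, plate calls lower were 1 under 2i with no filter, 1 under 2i and 2 in the knockout at a mean TPM of 5. For the knockout against 2i, a pseudocount of 0.1 gave 4 higher and 2 lower, and no filter 4 higher. Leaving out 1 bulk library at a time gave 14 to 18 higher in 2i, 18 to 21 in the knockout, and 4 to 6 higher (4 without knockout replicate 2) and 3 to 4 lower (3 without either serum library) between them; without serum replicate 2, 1 member was lower in 2i.

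Reversed by centring were, in the bulk knockout, Hist1h1b (-0.49), Hist1h2bc (-0.32), Hist1h2bg (-0.42) and Hist1h3g (-0.10); in the knockout against 2i, Hist1h2ab (-0.53), Hist1h2ap (-0.43), Hist1h4d (-0.30) and Hist2h4 (-0.57); on the 2i plate, Hist1h2ae (-0.47), Hist1h2bk (-0.20), Hist1h3e (-0.60) and Hist2h2ac (-0.06); and on the knockout plate, Hist1h2ai (-1.47), Hist1h2bc (-0.99), Hist1h2bk (-0.24), Hist1h3b (-0.36), Hist1h3e (-0.90), Hist1h3g (-0.91), Hist1h3i (-0.31), Hist1h4n (-0.12), Hist2h2ac (-0.93) and Hist2h2bb (-0.25). Quantile normalisation reversed Hist1h1b (-0.46) and Hist1h2bc (-0.31) in the bulk knockout, and Hist1h2ab (-0.46) and Hist1h2ap (-0.34) against 2i. Without knockout replicate 2, Hist1h2ab (-0.66, 1.36 without replicate 1) and Hist1h2ap (-0.29, 1.19 without replicate 1) reversed against 2i, and Hist1h2ai against serum was 0.00 (3.90 without replicate 1); without replicate 1, Hist1h2ai reversed against 2i (0.92, -2.98 without replicate 2). On the knockout plate, the mean over cells of log2(TPM + 1) reversed Hist1h2ai (-0.94) and Hist1h3g (-0.02), and leaving out the highest cell reversed Hist1h2ai (-0.03). The plates' summed change after centring was 4.20 and 3.82 for H4 and -0.96 and -1.31 for H2A. At a TPM of 10 the median cell held 12 and 9 members in serum, 23 under 2i and 20 in the knockout. Mean correlations over members in at least 25% of cells were 0.17, 0.21, 0.25, 0.27 and 0.09 (NPC), and at 5% 0.18 in the knockout and 0.08 in NPCs. Scaled by the median ratio of all windows, polymerase ratios were -0.52 (2i) and 0.06 (knockout), H3K27ac -0.03 and 0.43, and H3K4me3 0.18 and 0.81.

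The labels number the serum and knockout libraries alike. Over genes, the deviations of serum 1 and knockout 1 from their group means had a correlation of -0.014. With 2 libraries per group, this cannot tell whether same-numbered libraries share a preparation. With the number as a replicate block, 24 members rose in 2i and 25 in the knockout, and 8 were higher and 6 lower in the knockout than in 2i.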
